A study of Drosophila melanogaster with 3 samples.

Results

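A peak list has to be ended somewhere, and the 3469 genomic regions described here are those that fell just short of the end. They come from chromatin immunoprecipitation followed by sequencing (ChIP-seq) of CG5245 in Drosophila melanogaster embryos. The submitters' pooled list of 30000 candidate regions was sorted by falling signal value. The submitters' reproducible set holds the head of this list, and as many regions again were taken from directly after it. Of these, 201 were left out because they overlapped a reproducible peak by at least 1 bp. The remaining 3469 (94.5%) are called near-threshold regions below. They were thus chosen by their signal, which is described but not tested.

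The study had 1 group, which was whole mixed-sex embryos collected at 0 to 16 h from a fly line with a transgene that fuses green fluorescent protein (GFP) to the C terminus of CG5245. The labels' description names an antibody against GFP, while their antibody field reads CG5245. There were 3 biological replicates, each with its own candidate list (30000, 30000 and 29608 regions), and all lists were made with the same control, which was not analysed here. Nothing in the labels says which cells of the embryo express the fusion, and no untagged or other genotype was analysed. The lists give no number of reads, so read depth is unknown.

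The product of CG5245 belongs to the C2H2 zinc finger family, whose fold many DNA-binding proteins use to read sequence. In ChIP-seq, such a protein leaves a graded series of regions, from sites found in every replicate to local fluctuations of the read count. The irreproducible discovery rate (IDR) ends a list at the rank from which the replicates order their regions too differently. Regions past that rank can be weak binding sites, binding in few cells, or noise, and the list itself does not say which.

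The near-threshold regions had signal values from 57.5 to 92.3 with a median of 70.0, a range of 1.61-fold. The signal value is a score from the submitters' peak caller that ranks regions within a list. The last reproducible peak had 92.352 and the first region after it 92.347, so no gap in signal marked the upper end. The lower end had none either, with 57.495 in the last near-threshold region and 57.490 in the region after it. The reproducible peaks had a median of 147.6, which is 2.11 times that of the near-threshold regions. The submitters' −log10 q values ran from 1.35 to 3.88, and 2034 regions (58.6%) had 2 or more. All but 1 region had the same width, so width carries no information. Together they take up 1.014% of the main chromosome arms.

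The DNA at a few of these summits gives examples, which do not stand for all of the regions. The first 6 sequences are the summit base and 50 bp to either side of the 2 promoter, 2 intronic and 2 intergenic regions of highest signal. All are in the top set of all 3 replicates, which is each replicate's highest-ranked regions, 2 times as many as there are reproducible peaks, and windows that touch an annotated exon were passed over, as was the chromosome arm that holds the region in Amph described below. The last 2, chosen under the same conditions, are the regions of highest signal that hold each of the 2 promoter elements discussed below. Sequences are from Release 6 of the fly genome (the dm6 assembly), plus strand, 5′ to 3′, with matches to any of 12 searched motifs in capitals.
CG31076 promoter, chr3R:26990067-26990167: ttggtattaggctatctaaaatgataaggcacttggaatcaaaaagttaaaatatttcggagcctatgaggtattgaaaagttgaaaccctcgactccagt
CG5199 promoter, chr3L:20452926-20453026: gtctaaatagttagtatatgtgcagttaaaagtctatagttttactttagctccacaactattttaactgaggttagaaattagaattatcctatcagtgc
CG10348 intron, chr2L:18717646-18717746: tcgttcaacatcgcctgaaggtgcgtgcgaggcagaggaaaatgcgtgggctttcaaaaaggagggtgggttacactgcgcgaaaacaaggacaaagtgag
CG12535 intron, chrX:3431856-3431956: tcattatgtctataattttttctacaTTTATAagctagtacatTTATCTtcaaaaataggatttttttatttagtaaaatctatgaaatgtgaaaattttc
Intergenic, chr3L:12673037-12673137: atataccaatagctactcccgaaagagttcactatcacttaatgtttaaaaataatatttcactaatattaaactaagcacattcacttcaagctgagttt
Intergenic, chr3L:627181-627281: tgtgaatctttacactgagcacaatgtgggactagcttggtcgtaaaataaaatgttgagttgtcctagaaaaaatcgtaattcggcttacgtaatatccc
Syx7 promoter, chr3L:21445723-21445823: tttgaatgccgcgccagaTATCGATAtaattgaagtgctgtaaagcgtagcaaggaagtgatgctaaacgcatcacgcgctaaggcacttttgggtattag
Gfat2 promoter, chr3R:28339823-28339923: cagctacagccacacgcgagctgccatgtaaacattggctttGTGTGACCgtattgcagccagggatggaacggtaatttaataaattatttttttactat

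The base composition of these 8 windows ranged widely. The CG12535 window was 81.2% A or T, against 63.4% in the windows 500 bp to either side of it. The CG5199 window was 70.3% A or T with 48.0% at its sides, and the intergenic window at 12673037 had 71.3% and 45.0%. The CG10348 window went the other way, with 47.5% at the summit and 58.4% at its sides. Its sequence holds none of the 12 motifs, and neither do those of CG31076, CG5199 and both intergenic regions.

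Most near-threshold regions were seen in more than 1 replicate, but few in all. Of the 3469 regions, 602 (17.4%) overlapped a region of the top set of every replicate, 1659 (47.8%) of exactly 2, 1090 (31.4%) of 1 and 118 (3.40%) of none. Among all 30000 pooled candidates 9.18% overlapped such regions in exactly 2 replicates, 17.5% in 1 and 57.7% in none. Overlap in every replicate was seen for 15.6% of these candidates and for 91.6% of the reproducible peaks. At the next ranks, an equally long stretch of the list that ends at rank 11010, the share was 1.16% (41 of 3539 regions). The pool was made from the same 3 replicates, which share a control, so this presence describes the regions and is no independent test of them. Replicate 1 held 2252 of the near-threshold regions (64.9%), replicate 2 held 2195 (63.3%) and replicate 3 held 1767 (50.9%). The same overlap over all pooled candidates was 27.9%, 27.8% and 27.1%. Replicate 3 was thus the one in which a near-threshold region was most often missing, and 760 regions (21.9%) were in replicates 1 and 2 without it. The other pairs, 1 with 3 and 2 with 3, held 432 and 467 regions.

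Presence followed rank within this narrow span of signal. In the first of 10 equal rank groups, which ended at rank 4037, 180 of 347 regions (51.9%) were in all 3 replicates and none was in 0. In the last group, from rank 6974 on, 9 of 343 (2.62%) were in all 3 and 43 (12.5%) in none. The last 367 reproducible peaks had 67.3% in all 3, so presence was lower on the near-threshold side of the end of the list than on the reproducible side.

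**Figure D1:**
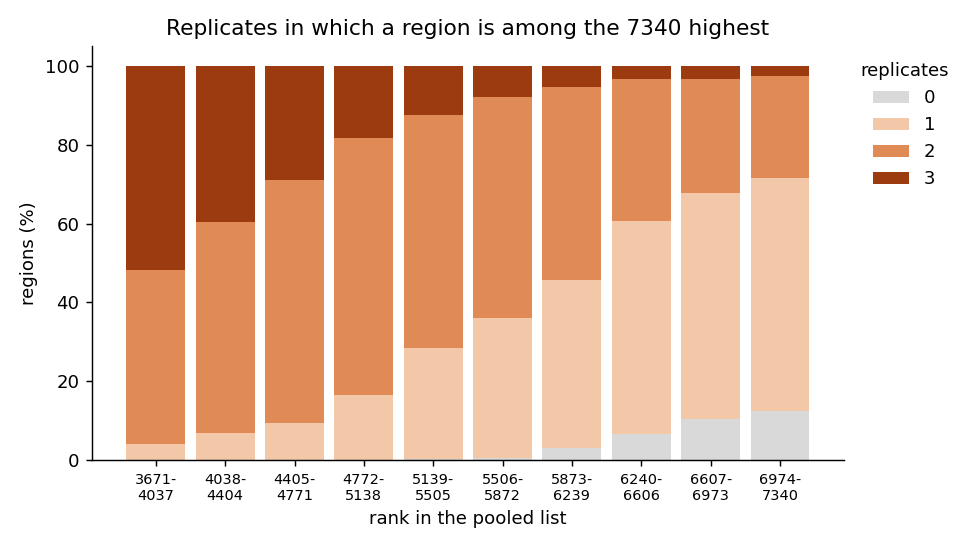
Bars show 10 equal groups of near-threshold ranks in the pooled list, and colours the share of regions (%) found in the top set of 0, 1, 2 or 3 replicates. The darkest part shrinks from 51.9% in the first group to 2.62% in the last.

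Ranks in single replicates were scattered far more than ranks in the pool. The best overlapping candidate of a near-threshold region had a median rank of 5954 in replicate 1, 5968 in replicate 2 and 6407 in replicate 3. The middle 50% of regions ran from rank 4368 to 8528 in replicate 1 and from 4179 to 10958 in replicate 3. Any candidate at all was found in every replicate for 2945 regions (84.9%), whereas 388 (11.2%) had none in replicate 3, 93 in replicate 2 and 47 in replicate 1. The upper ranks of each replicate, as many as there are reproducible peaks, held 465 of the regions in replicate 1, 488 in replicate 2 and 549 in replicate 3. Of the near-threshold regions, 1174 were in the upper ranks of exactly 1 replicate, 158 of 2 and 4 (0.115%) of all 3. The share in all 3 was 9.39% over all pooled candidates and 66.5% in the reproducible set. Of the 2818 candidates of this kind, 2440 were reproducible peaks. The rule for near-threshold regions leaves those out, so the low count of 4 follows in part from that rule. For the other counts given here no share over all pooled candidates is available, so they describe these regions only.

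The 4 regions in the upper ranks of every replicate do not form 4 separate missed sites. One, 27 bp downstream of the transcription start site (TSS) of brwl, ranked 293, 245 and 455 in replicates 1, 2 and 3 but 3690 in the pool, and its summit lay 199 bp from a reproducible peak. Another, 78 bp upstream of the TSS of Alp12, which encodes an alkaline phosphatase, ranked 356, 275 and 199. Its summit lay 159 bp from a reproducible peak, and at 106 bp it was the 1 region narrower than the rest. The remaining 2 overlap each other in the promoter of Samuel on 2L, at pooled ranks 3968 and 5803, and share 1 set of replicate regions (ranks 2352, 1852 and 2994). No reproducible peak lay within 19657 bp of them. Next in order came a region 15 bp from the TSSs of CG18809 and COX6B, which encodes a subunit of cytochrome c oxidase, with ranks 3491, 3752 and 2681.

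At the other extreme stood regions that were high in the pool and in no replicate. The strongest lay in an intron of CG1208, at pooled rank 5410, with ranks 7461, 8421 and 7404 in the replicates, past the end of each top set. Another was at the promoter of stg, which encodes the Cdc25 phosphatase that triggers mitosis, 55 bp downstream of a TSS. Its pooled rank was 5830, against 8148, 10048 and 14227 in the replicates.

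Near-threshold regions were common at promoters, though less so than reproducible peaks. Summits no more than 500 bp from a TSS count as promoter, and the others as exon, intron or intergenic in that order. Of the 3469 summits, 1471 (42.4%) lay at promoters, 1299 (37.4%) in introns, 583 (16.8%) between genes and 116 (3.34%) in exons. The reproducible peaks had 49.0% at promoters, the next ranks 33.1% and the lowest-ranked candidates 17.9%. Exons held 2.32% of reproducible peaks, 6.39% of the next ranks and 15.7% of the lowest-ranked. Outside promoters the split hardly moved across the end of the list: 65.0% of such near-threshold summits were intronic and 29.2% intergenic, against 66.3% and 29.2% in the reproducible set.

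**Figure D2:**
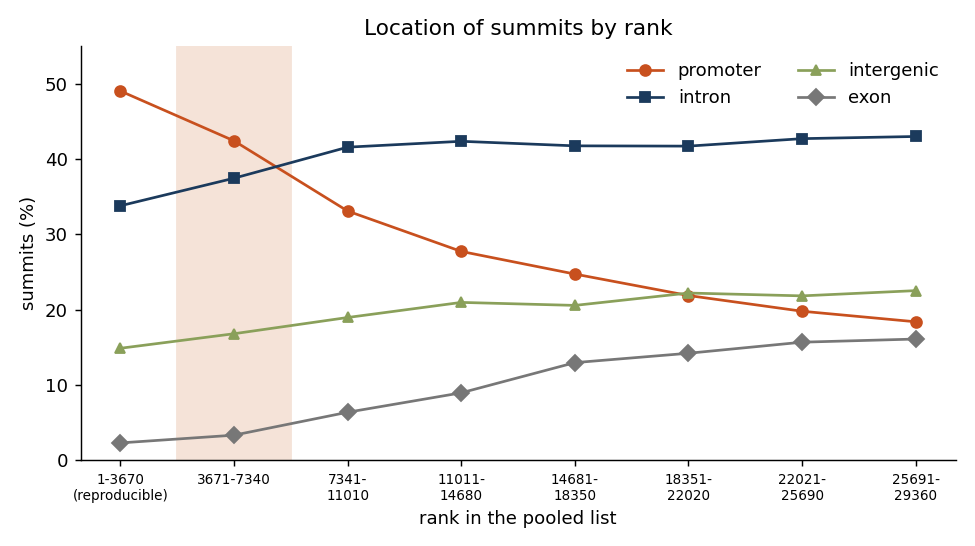
Points give the share of summits (%) at promoters, in introns, between genes and in exons for successive sets of pooled ranks, with the near-threshold ranks shaded. Promoter shares are 49.0%, 42.4% and 33.1% in the first 3 sets, and exon shares 2.32%, 3.34% and 6.39%.

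Promoter shares on either side of the end of the list were alike. The last 367 reproducible peaks had 45.0% of summits at promoters and the first of the 10 near-threshold rank groups 47.8%. The last group had 35.6%, near the 33.1% of the next ranks. Regions in all 3 replicates were at promoters in 47.5% of cases, those in 2 in 43.1%, those in 1 in 38.9% and those in none in 39.0%. Seen from the other side, 286 of 1471 promoter regions (19.4%) were in all 3 replicates, 212 of 1299 intronic (16.3%), 90 of 583 intergenic (15.4%) and 14 of 116 exonic (12.1%). Replicate 1 held 71.0% of the promoter regions and 61.0% of the intronic ones. Replicate 2 went the other way with 62.5% and 65.4%, and replicate 3 held 50.8% and 50.4%.

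The same decline was seen in each replicate ranked on its own. In the upper ranks of the replicates' own lists, promoter shares were 51.6%, 47.7% and 47.3% (48.9% ± 2.41, SD, n = 3). In the lower ranks, an equally long stretch that follows, without regions that overlap the reproducible set, they were 44.7%, 38.3% and 32.6% (38.5% ± 6.03, SD, n = 3). The share was lower in the lower ranks of every replicate, by 6.97, 9.37 and 14.7 percentage points (mean 10.3 ± 3.95, SD). The upper ranks kept regions that overlap the reproducible set, which comes from the same replicates, so the 2 stretches were not filtered alike. With every region kept in the lower ranks the mean difference was 8.33 points. The other measures compared between upper and lower ranks are given with the filter only. An exact 2-sided sign-flip permutation test over the 3 replicates gave p = 0.25, the smallest value that 3 pairs allow, so no test of this kind could reach 0.05 here. The groups of values did not overlap, but replicate 3 stood below the others in the lower ranks and had 10.2% of its summits there in exons, against 3.94% and 4.36%. The 42.4% of the pooled list lay between replicate 1 and the others.

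**Figure D3:**
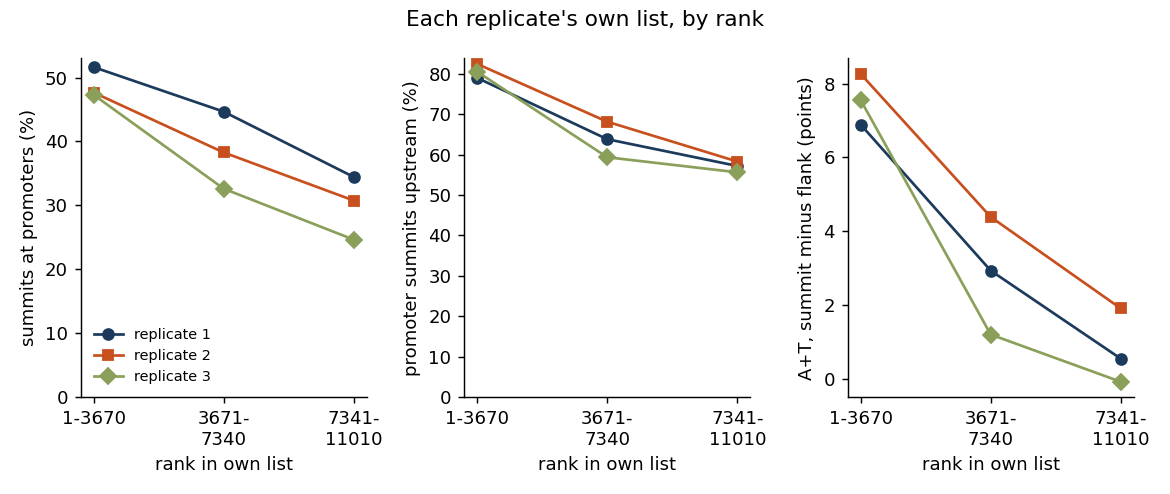
Each line is 1 replicate ranked on its own list, at the upper, the lower and the next ranks (the latter 2 without overlap of the reproducible set). Panels show summits at promoters (%), promoter summits upstream of the TSS (%) and A+T at the summit minus its flanks (percentage points); each line falls from left to right in each panel.

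Promoter summits sat mostly just upstream of the TSS. Among the 1471 near-threshold promoter summits 1058 were upstream, 410 downstream and 3 on the TSS (71.9% upstream), with a median of -60 bp and a middle 50% from -152 to 12.5 bp. Reproducible promoter peaks were upstream in 82.2% of cases with a median of -95 bp, and the next ranks in 59.9% with a median of -32 bp. Near-threshold regions present in all 3 replicates resembled the reproducible peaks, with 81.8% upstream and a median of -89 bp, whereas those in none had 60.9% and -37 bp. Their median pooled ranks were 4342.5 and 6848.5. The upstream share also fell with rank, from 77.1% in the first of the 10 rank groups to 68.9% in the last. Presence and rank were not separated, here or for the promoter shares and A+T. Within the replicates' own lists the upstream share was 80.7% ± 1.73 (SD, n = 3) in the upper ranks and 63.8% ± 4.40 in the lower ranks. The difference of 16.9 ± 3.74 points had the same sign in 3 of 3 replicates (p = 0.25, exact sign-flip permutation test, the smallest possible). Of the promoter regions 29.0% lay within 500 bp of TSSs of at least 2 protein-coding genes, against 37.1% of the reproducible promoter peaks and 20.5% at the next ranks.

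**Figure D4:**
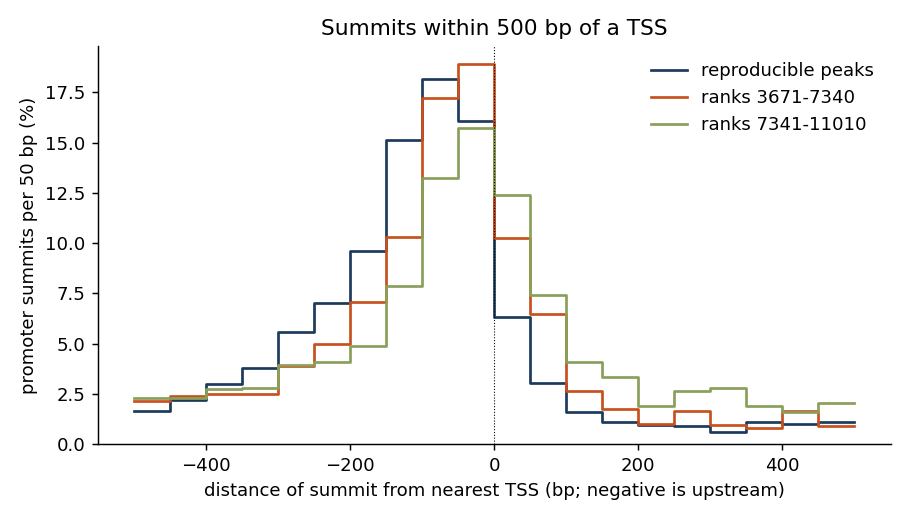
The share of promoter summits (%) per 50 bp is plotted against distance from the nearest TSS in bp, negative upstream, for reproducible peaks, near-threshold regions and the next ranks. The medians are -95, -60 and -32 bp, and the downstream side is fuller at lower ranks.

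The promoter regions of highest signal present in all 3 replicates belonged to genes of mixed function. They lay upstream of CG31076 (265 bp), CG5199 (112 bp), foxo (237 bp), CG8051 (274 bp), jvl (60 bp) and CG13088 (22 bp), within brwl, and at an unnamed transcript model of the annotation on 3L. The region at foxo, which encodes the forkhead transcription factor of insulin signalling, spans chr3R:14056510-14056905 and had a signal of 92.2. It ranked 3134, 4498 and 3955 in the replicates. The one at CG13088 ranked 5478, 4213 and 3855, lower than foxo in replicate 1 and higher in the others. The intronic regions of highest signal lay in Amph, which encodes the membrane-bending protein amphiphysin, in CG10348, CG12535 and CG32365, and in SNF4Agamma, which encodes the gamma subunit of AMP-activated kinase. The region in Amph was the first of all in the pool and ranked 5902, 2423 and 4119 in the replicates. The 4 intergenic regions lay 1204 to 11261 bp from the nearest TSS, with those of lncRNA:CR43334 and Aldh-III upstream at 1204 and 1627 bp. The highest exonic regions were in RpS26, which encodes a ribosomal protein, and lncRNA:CR44603.

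Many genes reached by near-threshold regions had no reproducible peak. A gene counts as reached when a summit falls no more than 500 bp from the start of 1 of its transcripts, even where the TSS of another gene is nearer. Reproducible peaks reached 2210 of 13945 protein-coding genes (15.8%). Near-threshold regions reached 1696, of which 136 had a reproducible peak as well, leaving 1560 (11.2% of all protein-coding genes) reached by near-threshold regions alone. The next ranks added 962 more (6.90%). Of the 1471 promoter regions, 1325 reached no gene with a reproducible summit. The rule for near-threshold regions leaves out those that overlap a reproducible peak, so the counts of 1560 and 1325 follow in part from it. Divergent genes share regions: if a region counts for the single closest gene, the count was 1179. With regions present in all 3 replicates it was 296.

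Cytoplasmic ribosomal protein genes, the list with the largest share in the reproducible set, gained a few more here. Reproducible peaks reached 58 of 86 of them, near-threshold regions 9 more (10.5%, beside 11.2% of all protein-coding genes), and the next ranks 7. Of the 28 genes without a reproducible peak the 9 are 32.1%, against 13.3% of all protein-coding genes without one. That share was higher in other lists, such as cell cycle and replication (44.4%) and Polycomb and Trithorax (43.8%). On the replicates' own lists the lower ranks alone reached 10.5%, 6.98% and 6.98% of the 86 (8.14% ± 2.01, SD, n = 3). That is about the share of all protein-coding genes (8.35% ± 1.48). The 86 genes had a mean of 1.74 TSSs, against 1.41 for all protein-coding genes. None of the 9 regions was in all 3 replicates. The region at RpLP2, which encodes a protein of the ribosomal stalk, ranked 2294 in replicate 1, 11524 in replicate 2 and 3991 in replicate 3. That at RpL12 ranked 2068, 18929 and 7125. The region at RpS14a ranked 2857 in replicate 1 and 4909 in replicate 2 and had no candidate in replicate 3. Replicate 2 thus ranked lowest at RpLP2 and RpL12, while replicate 3 had no candidate at RpS14a.

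Of 88 oxidative phosphorylation genes, which encode the respiratory chain and ATP synthase, 13 had a reproducible peak and 18 (20.5%) were reached by near-threshold regions alone, against 11.2% of all protein-coding genes. Of the 18 regions, 5 were in all 3 replicates, 7 in 2 and 6 in 1. The region at ATPsynF ranked 3580, 6249 and 4251 in the replicates, the one shared by ATPsynCF6 and Sec13 3994, 4757 and 4406, and the one at COX6B is given above. The region at ATPsynbeta, the catalytic subunit, ranked 2531 and 5407 in replicates 1 and 2 and had no candidate in replicate 3. On the replicates' own lists the share reached at the lower ranks alone was 11.7% ± 2.37 (SD, n = 3), with 8.35% ± 1.48 for all protein-coding genes, and the ranges met (9.09% to 13.6% and 6.79% to 9.75%). Mitochondrial ribosomal protein genes had 22 of 73 in the reproducible set and 13 more (17.8%) here, of which 3 were in all 3 replicates, 7 in 2 and 3 in 1. Their share at the lower ranks of the replicates' own lists was 6.85%, 12.3% and 5.48% (8.22% ± 3.62, SD, n = 3), about that of all protein-coding genes. The regions at mRpL36 (5459, 5101 and 2884) and mRpS17 (6026, 4812 and 3687) were in all 3 replicates, and that at mRpL54 in 2. The summit that reached mRpS17 lay 410 bp from its TSS and 26 bp from that of Nop60B.

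Cell cycle and replication genes had the largest share of the 19 lists. Near-threshold regions alone reached 12 of 37 (32.4%, against 11.2% of all protein-coding genes), beside 10 with a reproducible peak. The lower ranks of the replicates' own lists alone reached 24.3%, 18.9% and 18.9% of these genes (20.7% ± 3.12, SD, n = 3), above the 9.75%, 8.52% and 6.79% of all protein-coding genes in every replicate. The 4 of highest signal were Mcm5, a subunit of the replicative helicase, Orc1, of the origin recognition complex, CycA, a mitotic cyclin, and polo, a mitotic kinase. Their regions were in 2 replicates each: Mcm5 ranked 3510, 13036 and 6637, Orc1 6413, 4114 and 7976, CycA 4268, 4638 and 16597, and polo 6146, 9559 and 3610. Replicate 2 missed Mcm5 and polo, and replicate 3 missed Orc1 and CycA. The summit that reached Mcm5 lay 252 bp from its TSS and 46 bp from that of Art1. The other 8, named after their values were seen, were mad2, dap, aurB, stg, E2f1, Claspin, geminin and Cdk4. Of all 12, only the region at mad2, a gene of the spindle checkpoint, was in all 3 replicates, with ranks 4007, 6817 and 5607. The genes of this list had a mean of 1.62 TSSs, against 1.41 for all protein-coding genes, and the part of this difference in the result was not tested.

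Signalling genes and chromatin regulators were also reached in larger shares than the 11.2% of all protein-coding genes. Of 32 genes of the Egfr, Wnt, Hedgehog, BMP, JAK/STAT and Hippo pathways, 10 (31.3%) were reached here and 4 by reproducible peaks. They included Stat92E, the transcription factor of the JAK/STAT pathway (ranks 4427, 2051 and 7622), pnt, an ETS activator (3997, 4611 and 3591), Apc, of the complex that degrades Armadillo (3060, 3785 and 9797), and fz, a Wnt receptor (2850, 11479 and 7985). The region at pnt was in all 3 replicates. The lower ranks of the replicates' own lists alone reached 21.9%, 15.6% and 9.38% of them. Of 27 Polycomb and Trithorax group genes, 11 had a reproducible peak and 7 (25.9%) were reached here. The region at Psc, a subunit of the Polycomb complex PRC1, ranked 2387 and 4090 in replicates 1 and 3 and had no candidate in replicate 2. Those at kis, a chromatin remodeller of the Trithorax group (5306, 5251 and 6742), and osa, of the Brahma complex (4992, 5548 and 5479; named after its value was seen), were in all 3 replicates. The region at jing was in 2, and that at Snr1, another subunit of the Brahma complex, in 1. Replicate values for this list were 7.41%, 25.9% and 11.1%, a spread that overlaps that of all protein-coding genes. Mean numbers of TSSs per gene were 1.84 and 1.78 in these 2 lists.

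Near-threshold regions alone reached 6 of 29 heat shock and chaperone genes (20.7%), beside 11.2% of all protein-coding genes. Among them were CCT5, CCT7 and CCT3, which encode subunits of the cytosolic chaperonin, and DnaJ-1. The TSS of another gene was nearer to the summit at CCT5 (301 bp, with Oda at 237 bp) and at CCT3 (450 bp, with CG10324 at 151 bp). The region at DnaJ-1 ranked 5870, 4630 and 4935. Near-threshold regions alone reached 6 of 48 proteasome genes (12.5%, near the 11.2% of all protein-coding genes). Rpn8 was in all 3 replicates (6343, 2869 and 3291), Rpn2 and Prosalpha3 in 2 and Prosbeta1 in 1. Among 54 translation factor genes they reached 5 (9.26%, also near 11.2%), namely eIF3d1, eIF1A, eIF4A, eIF2gamma and, named after its value was seen, eEF1alpha2. The summit at eIF1A lay 206 bp from its TSS and 13 bp from that of Vps39. Of 18 insulator and architectural protein genes 4 (22.2%) were reached, but 2 of these, Ibf1 and Ibf2, share 1 region. The 4 are 40.0% of the 10 without a reproducible peak, against 13.3% of all protein-coding genes without one. The others were pita, which encodes a zinc finger protein (4706, 2487 and 12168), and SMC1, of cohesin (4126, 18362 and 14430). None of these 4 was in all 3 replicates. The lower ranks of the replicates' own lists alone reached 20.7%, 13.8% and 6.90% of the heat shock and chaperone genes. For proteasome genes it was 14.6%, 8.33% and 2.08%, and for translation factor genes 11.1%, 11.1% and 5.56%. Insulator genes had 16.7%, 0% and 16.7%, and all protein-coding genes 9.75%, 8.52% and 6.79%.

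Among developmental regulators of the embryo, near-threshold regions alone reached 1 of 8 Hox genes, with a region at Antp that ranked 2421 in replicate 2 but 7728 and 15537 in replicates 1 and 3. It was 2 of 22 segmentation genes, prd and Kr, each in 1 replicate. Dorsoventral patterning had 1 of 14 (Tl), the neural list 1 of 22 (fru), and Notch and E(spl) 1 of 21, kuz, which encodes the protease that cleaves Notch. The region at kuz was in all 3 replicates (3732, 4664 and 4073). Mesoderm and muscle had 1 of 22, Act87E, an actin gene, also in all 3 (3645, 3401 and 4998). In a list of 22 genes a single gene is already 4.55%, so these counts say little beside the 11.2% of all protein-coding genes.

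Among non-coding genes, near-threshold regions alone reached 16 of 290 tRNA genes (5.52%), 10 of 269 snoRNA genes (3.72%), 2 of 32 snRNA genes (6.25%) and 155 of 3261 genes annotated as ncRNA, which include long non-coding RNAs (4.75%), beside 11.2% of protein-coding and 9.61% of all genes. The lower ranks of the replicates' own lists alone reached 9.38% ± 3.13 (SD, n = 3) of the snRNA genes, 6.09% ± 1.63 of the tRNA genes and 3.10% ± 0.215 of the snoRNA genes, beside 8.35% ± 1.48 of protein-coding genes. Most of these genes have 1 TSS. Some neighbours share a region, such as tRNA:Ser-TGA-1-1 with tRNA:Ser-TGA-2-1, and tRNA:Ser-CGA-1-4 with tRNA:Val-AAC-2-1 and snoRNA:hts-a. Fewer regions than genes thus lie behind these counts. The next ranks reached 35 further tRNA genes (12.1%), more than either the reproducible peaks (14) or the near-threshold regions. Highest among tRNA genes were tRNA:Ser-AGA-2-4 (2496, 8686 and 6536 in the replicates), tRNA:Pro-CGG-2-3, tRNA:Ala-TGC-2-1 and tRNA:Gly-TCC-1-1. The summit at the last of these lay 419 bp from its start and 20 bp from the TSS of CG31248. Copies of a tRNA gene are nearly identical, and how reads that match several copies were placed is not given in the sources used here. A region 175 bp from the start of snRNA:U1:21D was in all 3 replicates (6541, 3398 and 6680), whereas that near snRNA:U5:35D was in 1. The summit of the latter lay 490 bp from the start of snRNA:U5:35D and 114 bp from the TSS of ND-B17. The snoRNA genes of highest signal were snoRNA:Me28S-G3081a, near the start of the host gene Uhg1, snoRNA:Psi18S-525a and snoRNA:Psi18S-640a, which share a region, and snoRNA:U3:54Ab.

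Long genes collected several near-threshold regions each. Counting summits inside a gene or near its starts, 231 genes had 3 or more. A summit inside overlapping genes counts for each of them. The most were in lncRNA:CR44999, a gene of 149.6 kb on X, with 12, beside 6 reproducible peaks. CG12535 lies wholly inside it, so the 8 regions of CG12535 are among the 12. CG43658 and lncRNA:CR44357 had 11 each, beside 7 and 15. Next came bun, pum and shn with 10 each, beside 2, 3 and 6 reproducible peaks. pum encodes an RNA-binding repressor of translation, and its regions were mostly intronic (8 of 10), with 1 in all 3 replicates. For bun it was 0 of 10 and for shn 3. These genes are 58.3 to 239.3 kb long, and length was not adjusted for.

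CG5245 itself, on chromosome 3R from 12429560 to 12431235, was not among the genes reached. The best candidate at the gene had pooled rank 7929, below the near-threshold ranks, with a signal of 54.5. Candidates overlapping it ranked 5201, 25817 and 7573 in the replicates. The nearest near-threshold summit, at 12426051, lay 3509 bp outside the gene at rank 4698 and was in all 3 replicates.

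Summits of near-threshold regions were rich in A and T, like those of the reproducible set but less so. The share of A and T was 62.0% in the 50 bp to either side of the summit and 57.0% in equal windows centred 500 bp away, so the summits were higher by 5.05 percentage points. The summit was richer than its flanks in 2294 regions, poorer in 1141 and equal in 34. The difference was 8.06 points in the reproducible set, 1.88 at the next ranks and -0.61 in the lowest-ranked candidates. It was 6.16 in the last 367 reproducible peaks and 7.23 in the first near-threshold rank group, so it was not lower just past the end of the list. Regions present in all 3 replicates had a difference of 7.40 points, those in 2 had 4.92, those in 1 had 4.01 and those in none had 4.38. Intronic and intergenic regions (5.82 and 5.90) exceeded promoter regions (4.31) and exonic ones (1.49). Ranked by replicate, it was 7.57 ± 0.687 points (SD, n = 3) in the upper ranks and 2.93, 4.39 and 1.20 (2.84 ± 1.59) in the lower ranks, lower in 3 of 3 replicates (p = 0.25, exact sign-flip permutation test, the smallest possible).

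**Figure D5:**
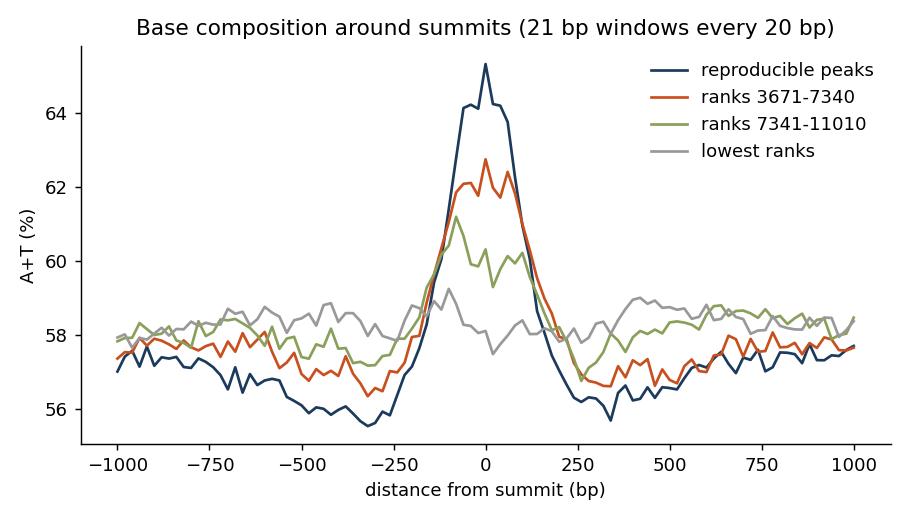
Mean A+T (%) in 21 bp windows is plotted against distance from the summit in bp for reproducible peaks, near-threshold regions, the next ranks and the lowest-ranked candidates; the axis does not start at 0. At the summit the 4 sets have 65.3%, 62.7%, 60.3% and 58.1%.

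Of the 12 motifs, 8 were more frequent at near-threshold summits than in the flank 500 bp to the right. Over all pooled candidates this held for all of the 12 but CAGGTAG, so the count of 8 is not particular to these regions. Motifs were searched on both strands within 50 bp of the summit, and a match is a description of the sequence, not a binding site. The DNA replication-related element TATCGATA, which is bound by Dref at promoters of growth and replication genes, was in 80 summits (2.31%) and 11 flanks (0.317%). It was in 1.12% of summits of all pooled candidates, 1.88% of reproducible peaks and 1.10% of the next ranks. It is the element in the window of Syx7, which encodes a syntaxin and whose TSS lies 61 bp away. That region ranked 3240, 5279 and 7007 in the replicates. In promoter regions alone the share was 4.89% (72 of 1471), against 3.56% of reproducible promoter peaks. In the replicates' own lists the share did not differ in 1 direction between upper and lower ranks (1.84% ± 0.413 and 1.64% ± 0.588, SD, n = 3; p = 0.5, exact sign-flip permutation test).

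The core of Motif 1, GGTCACAC, a promoter element bound by M1BP, was in 48 summits (1.38%) and 9 flanks (0.259%), with 0.773% over all candidates and 0.899% in the reproducible set. The Gfat2 window above holds it on the minus strand, 108 bp upstream of the TSS, and that region ranked 6312, 3570 and 2277. Of the 48, 44 were at promoters. In the replicates' own lower ranks the share was 2.02%, 0.951% and 0.490%, so it varied widely, and replicate 1 was highest. CGATA, the letters bound by the insulator protein BEAF-32, was in 16.2% of summits and 11.9% of flanks, and 13.4% of all candidates. It lies inside TATCGATA, and among regions without that element it was in 14.2% of summits and 11.95% of flanks. At promoters CGATA was in 25.02% of summits and 12.6% of flanks, and elsewhere in 9.66% and 11.5%, so its excess was confined to promoter regions in this list.

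TATAAA, the letters of the TATA box, was in 17.1% of summits and 10.4% of flanks (13.6% of all candidates), at promoters (15.4%) as well as elsewhere (18.4%). Shares of AGATAA, bound by GATA factors, were 7.24% and 5.22% (5.89% of all candidates), of TAATTA, bound by homeodomain proteins, 7.21% and 6.14% (6.83%), and of runs of 8 A 7.47% and 6.31% (7.66%). Apart from AGATAA, these motifs hold only A and T, the bases in which the summits are rich. CAGCTG was nearly even, at 4.90% and 4.53% (4.63%). The CA repeat CACACACA was less frequent at summits, with 1.87% against 3.89% (2.86%). For CACGTG, the Zelda word CAGGTAG and GAGAGAGA the shares were 0.894% and 1.21% (1.28%), 0.432% and 0.663% (0.467%), and 0.922% and 1.01% (0.980%). Between upper and lower ranks 7 of the 12 motifs differed in the same direction in 3 of 3 replicates: the GATA, TATA and homeodomain words were more frequent in the upper ranks, and the GA repeat, the CA repeat and both CANNTG words in the lower. The values were 0.572% ± 0.119 and 1.09% ± 0.131 for GAGAGAGA and 19.1% ± 0.590 and 14.4% ± 1.73 for TATAAA (SD, n = 3; p = 0.25 for each, exact sign-flip permutation test, the smallest possible). In the pooled list 2 of the 7 motifs went the other way between reproducible peaks and near-threshold regions. AGATAA had 6.98% and 7.24%, and CACGTG 0.954% and 0.894%. The rest of the 7 went the same way there. Of the 19 measures compared between upper and lower ranks, 14 reached that smallest p, and the adjusted p-value was 0.339 for each of them by the same exact test.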

How the data were processed

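ChIP-seq of GFP-tagged CG5245 was performed on 3 replicates, per the labels. Text files that accompany the lists say that the authors called candidate regions on dm6 and dm3 from each replicate and from the pool, each with 1 shared control, and that they derived the reproducible set by IDR. Aligner, peak caller and settings: not given in the sources used here. Each region carries what the authors deposited, a signal value per region, treated here as a score with no known unit, and a q value as −log10. Depth is unknown.

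The near-threshold regions are pooled dm6 ranks 3671 to 7340 without overlap of the reproducible set, the upper ranks are 1 to 3670, and a top set is a replicate's 7340 highest regions. Ranks follow the deposited dm6 score within each list, with no ties in the pool. Gene models were Ensembl release 115 (18164 genes, 23581 distinct TSSs, transposable elements left out), and sequence was the matching Release 6 assembly. Lists, motifs and regions were chosen with earlier results of these data known. Of the gene list symbols, 6 did not match and were left out. Regions are not replicates, so tests used the 3 replicates' own lists with an exact sign-flip permutation test and Benjamini-Hochberg adjustment over 19 measures. Named regions were, among those in all 3 replicates, the 8 promoter, 5 intron, 4 intergenic and 2 exon regions of highest signal. Also named were up to 4 genes per list (some are not reported here), the 5 regions best in their worst replicate, the 5 genes with most regions (with shn, which tied), the 3 strongest regions in no replicate (of which the intergenic one is not described) and CG5245. Python 3.11.15, NumPy 2.4.6, pandas 2.3.3, SciPy 1.17.1 and matplotlib 3.10.9 were used, and the steps were tested on simulated data.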

Additional observations from a re-analysis of the deposited data

How the results depend on the processing

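The number of regions stayed within 1.5-fold under each alternative (3150 to 3481). The share present in all 3 replicates, 17.4%, was 13.9% when 50% of the region had to overlap, 9.17% with summits within 100 bp, 0.115% against the upper ranks and 84.9% against all candidates of each replicate; in pairs of replicates it was 29.8% to 39.3%. Counting replicate regions outside the reproducible set, chosen after seeing the data, it was 17.3%. The promoter share, 42.4%, was 31.7% at 200 bp, 53.0% at 1000 bp, 39.5% with protein-coding TSSs and 47.5% in regions in all 3 replicates, which reached 296 genes in place of 1560. The promoter difference between upper and lower ranks was 8.17 to 12.03 points without any 1 replicate, and 8.33 with every region kept in the lower ranks. Without the replicate block it was 10.3 (p = 0.1, exact permutation test, the smallest possible). The A+T difference, 5.05 points, was 7.40 in regions in all 3 replicates, and 2.07 to 3.66 over any 2 replicates' own lower ranks. With windows of 100 bp to either side, motif differences moved to 3.26 points for TATCGATA, 2.16 for GGTCACAC, 11.4 for TATAAA, 2.97 for TAATTA, 2.13 for A runs and -0.58 for CAGGTAG. In regions in all 3 replicates they were 9.63 for TATAAA, 3.49 for AGATAA, 3.32 for TAATTA, 0 for A runs, -0.33 for CAGGTAG and -0.83 for CACGTG. The difference of GAGAGAGA (-0.09) changed sign to 0.12 and 0.50. The causes were not tested. Read depth, which would limit what lower ranks can show, is unknown.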

Other observations

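Near-threshold regions were spread evenly over the large chromosome arms, with 24.9 regions per Mb on X to 27.3 on 2L. The fourth chromosome, which is small and rich in heterochromatin, had 17 regions (12.6 per Mb) beside 12 reproducible peaks (8.90 per Mb), and 70.6% of the 17 lay at promoters, against 39.0% to 47.1% on the other arms. The summits lay a median of 6958 bp from the nearest reproducible peak, and 319 (9.20%) lay within 1000 bp of one, with 8181 bp and 8.56% at the next ranks. On the older dm3 assembly, whose reproducible set held 3456 peaks, the same ranks gave 3481 regions, and 17.6% of them were in all 3 replicates.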
